A study of Canis lupus familiaris with 32 samples.

Results

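The comparison described here set the hip joint capsule against the teres ligament in neonatal dogs. Its members are the libraries labelled young capsule (6) and young ligament (4), 10 of the 32 libraries of the series, chosen by their labels alone. All 10 came from dogs under 1 month of age. The labels give these dogs no disease status, breed, sex or treatment, and the identifier of 1 neonatal dog begins like those of affected dogs. The 7 neonatal dogs shared no animal with the rest of the series: 3 gave both tissues (capsule 1 with ligament 1, capsule 2 with ligament 2, capsule 6 with ligament 4), 3 gave only a capsule and 1 gave only a ligament. The equal replicate numbers of capsule 4 and ligament 4, and of capsule 3 and ligament 3, belong to different dogs.

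The series concerns developmental dysplasia of the hip as it arises naturally in dogs, and measured RNA of hip soft tissues from 25 dogs in 7 groups. Libraries were made from primary tissue as strand-specific total RNA after removal of ribosomal RNA. Besides the neonates, adult control dogs gave 5 capsules and 3 ligaments (1 dog gave both), and affected dogs gave 4 capsules (3 from dogs aged 4 months and 1 from an adult) and 7 ligaments (3 from dogs aged 4 months and 4 from adults), with 3 affected dogs giving both. The remaining 3 libraries were of embryonic hip.

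The joint capsule is a fibrous sleeve whose inner surface is the synovium, the membrane that makes the joint fluid. The teres ligament is a collagen cord that crosses the inside of the hip from the acetabulum to the head of the femur and carries a synovial covering of its own. Both are built mainly by fibroblasts, and a capsule sample also borders on muscle, fat and vessels. The deposited tables list genes by Ensembl ID and the tables used here pair none of these IDs with a symbol, so genes are described by ID, level and pattern. The tissue labels could therefore not be checked against marker genes. In whole tissue, fewer cells of a type and less RNA per cell cannot be told apart.

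The neonatal libraries held 4330476 to 9895143 fragments. Genes with at least 1 CPM (CPM, fragments of a gene relative to the library total, scaled to a common depth) numbered 13188 ± 184 (SD, n = 6) in capsules and 12864 ± 251 (n = 4) in ligaments (two-sided exact permutation p = 0.0667, adjusted over 3 tests 0.1). The 10 most abundant genes took 27.7% ± 4.42 (n = 6) of capsule fragments and 27.5% ± 5.07 (n = 4) of ligament fragments (exact permutation p = 0.933, adjusted 0.933). Ligament 2 was the deepest library, and totals averaged 5568812 ± 890738 (n = 6) in capsules and 7171308 ± 1828365 (n = 4) in ligaments (exact permutation p = 0.0619, adjusted 0.1, smallest possible p 0.00476). On log2 CPM across genes, which are not independent replicates, Pearson's r lay between 0.914 and 0.971 for capsule pairs, between 0.939 and 0.973 for ligament pairs, and between 0.827 and 0.929 across tissues. The first principal component held 55.3% of the variance and placed all capsules (10.1 to 63.7) on one side of all ligaments (-65.2 to -42.9). Capsule 2 and ligament 2, from the same dog, lay lowest on the second component, at -43.1 and -40.5.

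The capsule and the ligament of neonatal dogs differed most in genes that were expressed in capsule and mostly nearly silent in ligament. Genes called 16-fold or more higher in capsule, a cut that itself favours low ligament levels, had a median of 37.6 CPM in capsule and 0.33 CPM in ligament. Over all genes tested the capsule median was 20.3 CPM. Of 12773 genes tested, 778 (6.09%) differed between the tissues at an adjusted p under 0.05 (edgeR quasi-likelihood test): 490 (3.84%) were higher in capsule and 288 (2.25%) higher in ligament. The 2 directions differed in size. The median log2 fold change was 2.35 for the capsule-higher genes and -0.88 for the ligament-higher genes, and 0.0 over all genes tested. At 2-fold or more there were 502 called genes (3.93%), 398 capsule-higher (3.12%) and 104 ligament-higher (0.814%). With the dog as a block in the 3 dogs that gave both tissues, 488 genes were called, 318 higher in capsule and 170 higher in ligament. With the dispersion estimated from all 32 libraries, 603 genes were called, 486 higher in capsule and 117 higher in ligament, so the count on the ligament side depended on this choice. Leaving out ligament 3 gave 387 calls, and leaving out ligament 4 gave 433.

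The excess of capsule-higher genes lay in the large differences. Below 2-fold, 92 capsule-higher and 184 ligament-higher genes were called. Between 2-fold and 4-fold the counts were 127 and 84, and between 4-fold and 8-fold they were 67 and 17. From 8-fold to 16-fold they were 31 and 3. At 16-fold or more, 173 genes (1.35% of those tested) were called higher in capsule. No gene that passed the low count filter was higher in ligament by that much. Of the 173, 133 differed by 32-fold or more. The largest difference among called ligament-higher genes was 14.6-fold. Without the filter, 195 genes were called at 16-fold or more toward capsule and 4 toward ligament. The filter asks for a minimum level in as many libraries as the smaller group has. A gene found only in ligament thus had to reach it in every ligament.

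**Figure D1:**
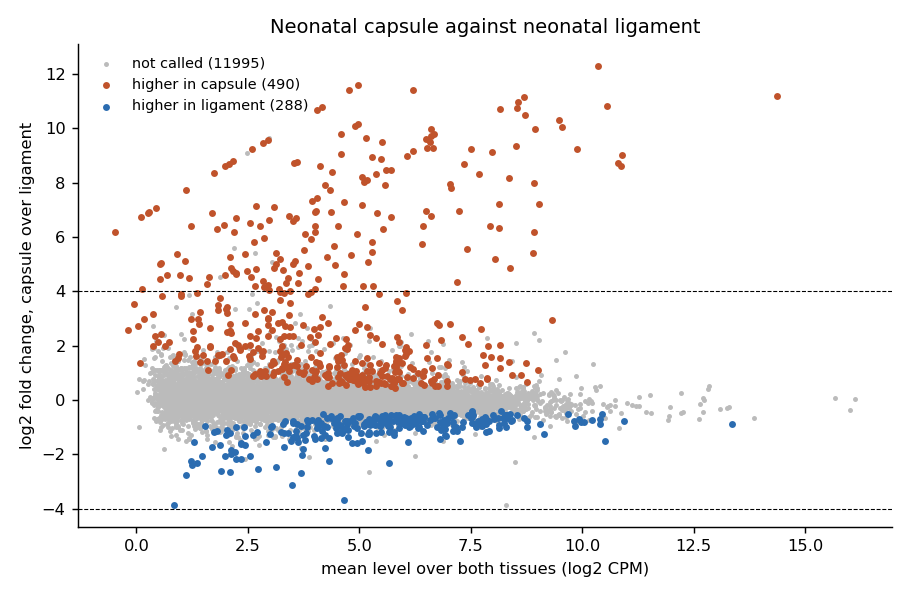
Each point is a gene tested in the neonatal comparison, with its mean level on the x axis (log2 CPM) and the log2 fold change of capsule over ligament on the y axis; coloured points passed an adjusted p under 0.05. The 490 capsule-higher genes reach a log2 fold change of 12.3, while the 288 ligament-higher genes end at -3.86.

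The asymmetry was seen at several expression levels. Among 3931 genes between 1 and 10 CPM on average, 164 (4.17%) were capsule-higher and 42 (1.07%) ligament-higher. Among 7413 genes between 10 and 100 CPM, 249 (3.36%) and 159 (2.14%) were called. In the 1426 genes at 100 CPM or more, the counts were 74 (5.19%) and 87 (6.1%), so that ligament-higher calls were the more numerous there. Genes at 16-fold or more were found at all 3 levels, 57, 78 and 37 of them. Fold change and relative gene length had a Spearman correlation of -0.06 across genes.

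Ranked per length by mean FPKM, the tissues had 9 of their 10 most abundant genes in common, and none of those 10 in either tissue was called. They had 79 of the top 100 in common. The capsule's top 100 held 10 capsule-higher genes, all of them at 16-fold or more, and 6 ligament-higher genes. The ligament's top 100 held 12 ligament-higher genes and no capsule-higher gene. Of the 173 genes at 16-fold or more, 39 reached 100 FPKM in capsule. Among genes at 1 CPM or more in each of the 6 capsules, 12 of 12072 (0.0994%) had 0 fragments in all 4 ligaments. Their capsule means ran from 5.0 to 58.5 CPM. A count of 0 over the 28685232 pooled ligament fragments allows up to 3 fragments (0.105 CPM, counting error only). The capsule means of these genes were thus at least 47.8-fold to at least 559-fold above that bound, without regard to the spread among capsules. Of the 12 genes, 11 were called. In the opposite direction, 0 of 11965 genes at 1 CPM or more in every ligament had 0 fragments in all capsules (floor of 0.0898 CPM over 33412869 pooled capsule fragments).

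Gene IDs were chosen by 1 rule in each direction: among genes that were called, had at least 5 CPM in the higher tissue, did not overlap between the tissues and had the same sign in all 3 dogs with both tissues (405 capsule-higher and 210 ligament-higher), the one with the largest fold change and the one at 2-fold or more with the highest level. ENSCAFG00000017522 had the largest fold change. Its level in capsules 1 to 6 was 3673, 602, 2625, 639, 6798 and 1234 CPM, and in ligaments 1 to 4 it was 0.286, 0.209, 0.725 and 0.911 CPM. Every capsule stood far above every ligament, and the capsules also differed widely among themselves, with capsule 5 highest and capsules 2 and 4 lowest. The means were 2595 ± 2387 CPM (SD, n = 6) and 0.533 ± 0.339 CPM (n = 4), a log2 fold change of 12.3 (SE 1.22, edgeR adjusted p 0.0017). Only 14 fragments of this gene were counted over the 4 ligaments, against 85804 over the 6 capsules. Per length it stood at 490 ± 447 FPKM (rank 138) in capsule and 0.1 ± 0.0628 FPKM in ligament.

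ENSCAFG00000014025 was the most abundant capsule-higher gene by CPM. Capsules 1 to 6 held 21811, 110444, 17050, 8056, 83855 and 13263 CPM, and ligaments 1 to 4 held 11, 29.6, 13.5 and 18 CPM. Capsules 2 and 5 were far above the other 4 capsules, and capsule 4, the lowest, was still far above the highest ligament. The log2 fold change was 11.19 (SE 1.23, edgeR adjusted p 0.0019). Its mean in capsule was 42413 ± 43459 CPM (n = 6), and in ligament 18 ± 8.24 CPM (n = 4). Per length, it had 430 ± 442 FPKM in capsule (rank 158), below the 490 FPKM of ENSCAFG00000017522, and 0.182 ± 0.0843 FPKM in ligament. Its relative gene length was 543, against a median of 10.8 over all genes tested, and CPM is not divided by length.

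ENSCAFG00000013466 was the ligament-higher gene with the largest fold change under the rule. It had 50.4, 36.3, 55 and 44.6 CPM in ligaments 1 to 4 and 5.78, 2.68, 4.25, 3.42, 3.44 and 2.06 CPM in capsules 1 to 6. The ligaments lay close together, and the lowest of them was well above the highest capsule. The means were 46.6 ± 8.06 CPM (n = 4) and 3.61 ± 1.3 CPM (n = 6), 12.9-fold apart (log2 fold change -3.68, SE 0.24, edgeR adjusted p 9e-06).

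ENSCAFG00000003102 had the highest mean CPM among the ligament-higher genes that met the rule at 2-fold or more; some called genes under 2-fold were more abundant. Ligaments 1 to 4 held 1680, 1834, 2684 and 2360 CPM, and capsules 1 to 6 held 759, 743, 687, 947, 809 and 595 CPM. The groups did not overlap, but the difference was 2.83-fold (log2 fold change -1.5, SE 0.17, edgeR adjusted p 0.0015), and the gene was abundant in both tissues: it ranked 56 in ligament, at 878 ± 185 FPKM (n = 4), and 213 in capsule, at 311 ± 48.9 FPKM (n = 6).

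**Figure D2:**
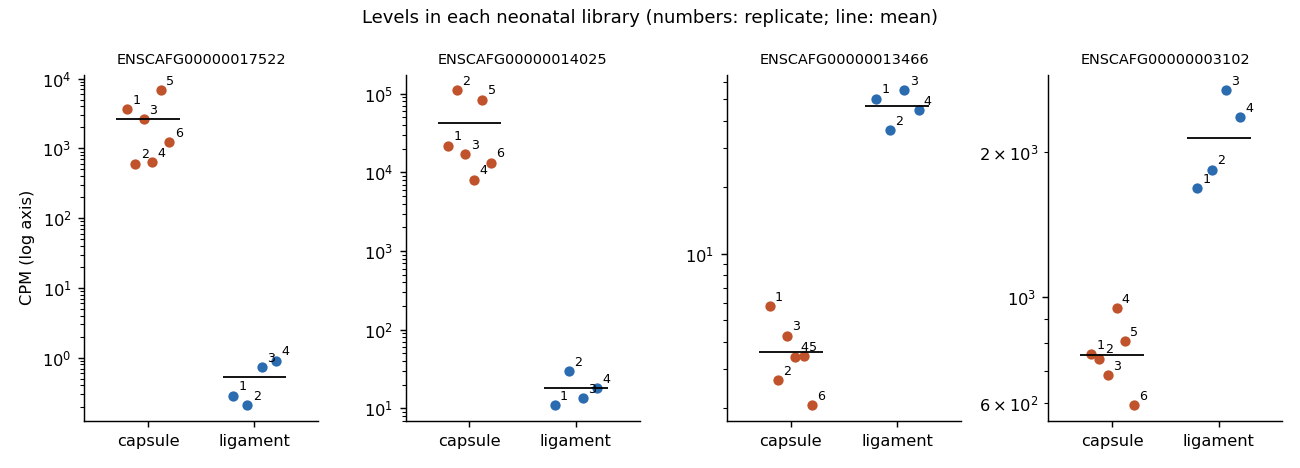
Level of the 4 named genes in each neonatal library (CPM, log axis, with its own range in each panel), capsules beside ligaments, with 1 point per library. In each of the 4 panels the capsules and ligaments do not overlap, and the capsules spread widely in the 2 capsule-higher genes and narrowly in the 2 ligament-higher genes.

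Within the 3 dogs that gave both tissues, 486 of the 490 capsule-higher genes were higher in capsule in every dog, and 287 of the 288 ligament-higher genes were higher in ligament in every dog. Over all genes tested the corresponding shares were 20.7% and 21.7%. These libraries also entered the test that chose the genes, so the counts describe them and add no separate evidence. In the dog of capsule 1 and ligament 1, the median within-dog log2 difference was 1.95 for capsule-higher genes and -0.71 for ligament-higher genes. In the dog of capsule 2 and ligament 2 the medians were 2.32 and -0.78, and in the dog of capsule 6 and ligament 4 they were 1.87 and -1.16. The dog with the smallest capsule-side median thus had the largest ligament-side median. ENSCAFG00000017522 differed by 12.56, 10.15 and 9.97 on the log2 scale in the 3 dogs, and ENSCAFG00000013466 by -3.06, -3.61 and -4.23.

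The 173 genes at 16-fold or more, a class set after the fold changes had been seen, were high in capsule to very different degrees. Together they took 5.54%, 18.5%, 4.07%, 1.97%, 14.5% and 3.04% of the fragments of capsules 1 to 6, and 0.0237%, 0.0317%, 0.0195% and 0.0253% of those of ligaments 1 to 4. Capsules 2 and 5 were thus well above the other capsules, and capsule 4 was the lowest. A large part of each capsule's share came from 1 gene, ENSCAFG00000014025. It held 618516 of the 6155177 fragments of capsule 2, 438836 of the 6230468 of capsule 5 and 39998 of the 4330476 of capsule 4. The median log2 CPM of the class, on which 1 gene has little weight, was 4.7, 6.14, 4.68, 3.29, 6.17 and 3.93 in capsules 1 to 6. Capsule 4 was also the smallest capsule library (4330476 fragments), and whether depth had a part in its low share was not tested. The smallest log2 fold change inside the class was 4.01 and the largest among called genes outside it 3.96. A further 6 genes had a fitted difference of 16-fold or more toward capsule and were not called.

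The class moved largely as a block across the capsules. Of the 173 genes, 87 (50.3%) were highest in capsule 5 and 83 (48.0%) in capsule 2, against 19.2% and 22.1% of all genes tested, and 149 (86.1%) were lowest in capsule 4, against 20.3% of all genes. The median SD over the 6 capsules was 1.28 on the log2 scale, against 0.31 for all genes tested. In the 4 ligaments the median SD was 0.50, against 0.29. ENSCAFG00000017522 did not share the order in full, since its lowest capsule was capsule 2, at 602 CPM. The 225 capsule-higher genes between 2-fold and 16-fold leaned the same way: 126 (56.0%) were highest in capsule 5 and 143 (63.6%) lowest in capsule 4. For the 92 capsule-higher genes under 2-fold the median SD was 0.27, near that of all genes. Each class was formed from the same libraries, so these values describe the classes and carry no test.

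Leaving out capsules 2 and 5, an alternative chosen after their shares had been seen, gave 618 called genes, of which 530 were also called with all capsules. Genes called higher in capsule at 16-fold or more then numbered 122 in place of 173, and the log2 fold change of ENSCAFG00000014025 was 9.7 in place of 11.19. Of the class of 173, 155 genes passed the filter without these capsules and 153 of them were called; the class had been chosen with the same 4 remaining capsules and 4 ligaments, so that count adds no separate evidence.

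**Figure D3:**
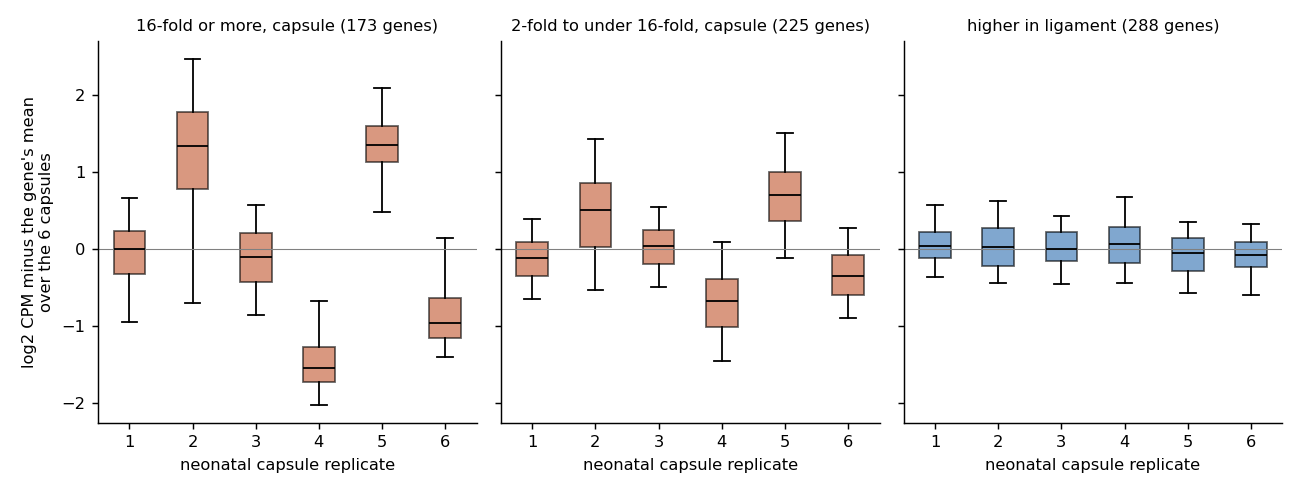
Log2 CPM of each gene minus its mean over the 6 capsules, by capsule replicate, for 3 gene classes (box: quartiles with the median; whiskers: 5th to 95th percentile). Capsules 2 and 5 sit above the mean and capsule 4 below it in the 173 genes at 16-fold or more, and less so in the 225 genes from 2-fold to 16-fold, while the 288 ligament-higher genes sit near 0 in every capsule.

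Most ligament-higher genes were detected in both tissues, as were most genes tested. All 288 had at least 1 CPM in every ligament, and 267 had it in every capsule. Of all 12773 genes tested, 11970 had at least 1 CPM in every ligament and 12090 in every capsule, so these counts are close to the background. Of the 173 genes at 16-fold or more, 160 had at least 1 CPM in every capsule, 26 had it in every ligament, and 44 had at most 3 fragments over the 4 ligaments. This class was cut by its fold change in these same libraries, so low ligament levels follow at least in part from the cut. The ligament-higher genes had no such cut, and 184 of them differed by less than 2-fold, so the 2 sets are not matched in size of difference. The median FPKM of the ligament-higher genes was 13.8 in capsule and 25.6 in ligament, and that of the 16-fold class was 20.9 in capsule and 0.151 in ligament. The ligament-higher genes took 6.17%, 5.59%, 6.59% and 6.28% of the fragments of ligaments 1 to 4, and 3.69%, 3.02%, 3.29%, 3.85%, 3.06% and 3.58% of those of capsules 1 to 6. Both groups were narrow and apart.

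These genes varied among animals about as much as all genes tested did. Their median SD was 0.28 over capsules and 0.32 over ligaments on the log2 scale, near the 0.31 and 0.29 of all genes tested. The 104 of them at 2-fold or more varied more, with medians of 0.42 and 0.41. The 184 under 2-fold had medians of 0.24 and 0.27. Non-overlap of all ligaments above all capsules was seen for 221 of the 288, against 2.78% of all genes tested. For the 490 capsule-higher genes, all capsules lay above all ligaments in 443, against 5.03% of all genes tested. Both lists were called on these same libraries, so the counts describe them and add no separate evidence. Within the ligaments, 146 ligament-higher genes (50.7%) were highest in ligament 4, against 26.6% of all genes tested, and 127 (44.1%) were lowest in ligament 1, against 27.8%.

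To see where the neonatal difference stood in other dogs, the genes called in neonates were followed without any filter in the adult control and the affected libraries, which share no dog and no library with the neonates. The measure is the log2 ratio of mean capsule to mean ligament CPM, with 0.5 CPM added to each. Of the 173 genes at 16-fold or more, 169 (97.7%) had the higher mean in capsule in adult controls, against 47.8% of all genes tested in neonates, with a median log2 ratio of 3.38. All control capsules lay above all control ligaments in 101 of them (58.4%), against 3.16% of all genes. Control capsules 3 and 5 weighed most in these means: the class had a median log2 CPM of 4.77 and 4.26 there, and 1.48, 1.71 and 2.17 in capsules 1, 2 and 4. Its genes also moved together across the 5 control capsules (median pairwise r 0.86), so they are not independent observations. In affected dogs, 170 of the 173 genes (98.3%) had the higher mean in capsule, against 48.4%, with a median of 3.42. All affected capsules lay above all affected ligaments in 126 (72.8%), against 1.62%. In neonates, the median fitted log2 fold change of these genes was 6.77, but it was fitted in the libraries that chose them and on another scale.

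The smaller capsule differences were less regular in other dogs. Of the 225 genes from 2-fold to 16-fold, 180 (80%) had the higher mean in capsule in adult controls, and 201 (89.3%) in affected dogs. Under 2-fold, 53 of 92 genes (57.6%) did so in adult controls, and 76 (82.6%) in affected dogs. Over all 490, the shares were 82.0% and 91.2%.

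The ligament-higher genes kept their side less often than the 490 capsule-higher genes, but their neonatal differences were also smaller. Of the 288 ligament-higher genes, 177 (61.5%) had the higher mean in ligament in adult controls, against 52.2% of all genes tested, with a median log2 ratio of -0.11. The share was 49% without control ligament 3, which reverses its lean, and 69.8% without control ligament 2, so its size rests on single libraries. All control ligaments lay above all control capsules in 31 genes (10.8%), against 3.15%. In affected dogs 220 (76.4%) had the higher mean in ligament, against 51.6%, with a median of -0.3, and 4 genes (1.39%) did not overlap, against 0.399%.

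**Figure D4:**
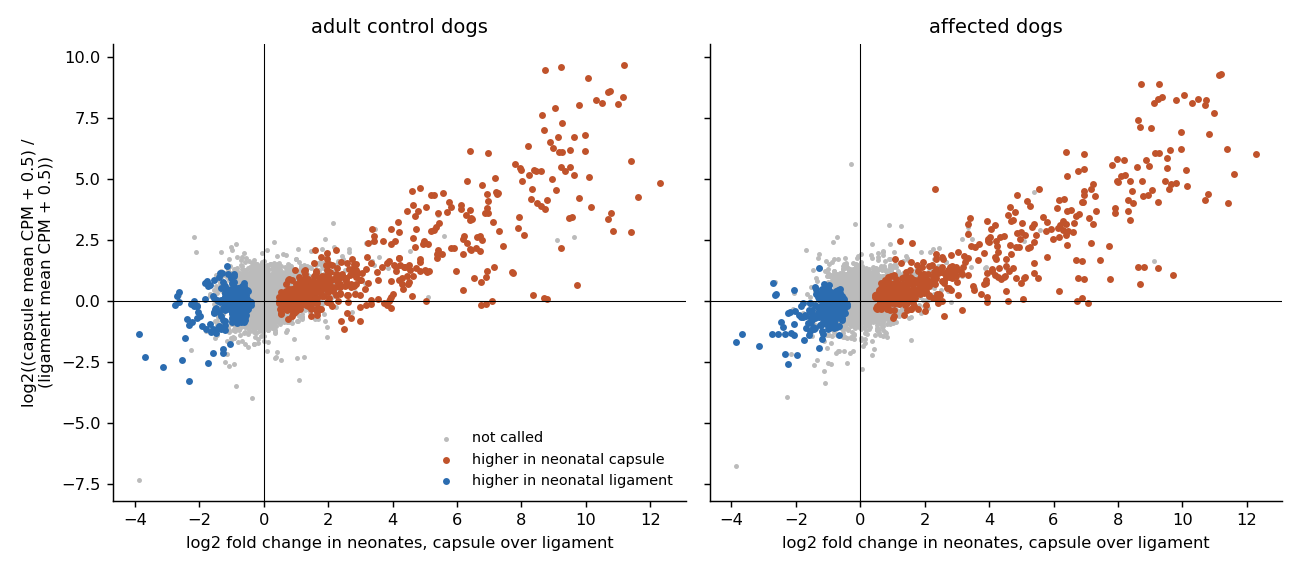
Each point is a gene tested in neonates, with its neonatal log2 fold change of capsule over ligament on the x axis and the log2 ratio of mean capsule to mean ligament CPM (0.5 added to each) in adult control or affected dogs on the y axis; colours mark the neonatal calls. Of the 173 genes beyond 16-fold in neonatal capsule, 169 lie above 0 in adult controls and 170 in affected dogs, while the ligament-higher genes lie around a median of -0.11 and -0.3.

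The same test run within the other dogs called fewer genes. Between adult control capsules and ligaments, edgeR called 0 of 12835 genes (0% in each direction), where an unadjusted p under 0.05 was reached by 1563 genes and DESeq2 made 236 calls. Between affected capsules and ligaments, edgeR called 144 genes (1.12%) higher in capsule and 7 (0.0546%) higher in ligament. Of the 144, 117 were also capsule-higher in neonates, which is 23.9% of the neonatal list and 81.2% of the affected list. Of the 7, 2 were ligament-higher in neonates, which is 0.694% and 28.6% of the lists. The affected dogs differed in age and some gave both tissues, and the group sizes differ from those of the neonates.

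In single genes, the capsule levels of other dogs were compared on 1 scale set over all 32 libraries. ENSCAFG00000014025 ran from 2097 to 77636 CPM in control capsules (median 5981), with capsules 3 and 5 at 52407 and 77636 and the other 3 at or below the median. It ran from 13624 to 39086 CPM in affected capsules and from 26245 to 30261 CPM in embryonic hip. In control ligaments it lay between 11.4 and 74.6 CPM and in affected ligaments between 7.16 and 134 CPM. Every capsule and every embryonic hip library stood above every ligament of the series. Its log2 fold change was 9.71 (SE 1.98, edgeR adjusted p 0.21) in adult controls and 9.31 (SE 0.78, adjusted p 3.1e-06) in affected dogs.

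ENSCAFG00000017522 was highest in neonatal capsule, at 659 to 7323 CPM on this scale (median 2126). It ran from 49.4 to 79.3 CPM in embryonic hip, from 3.12 to 166 CPM in affected capsules and from 2.17 to 50.5 CPM in control capsules, so the 3 older and embryonic groups overlapped one another and stood below every neonatal capsule. It was at or below 1.68 CPM in every ligament of the series. Its tissue difference by age (interaction log2 5.99, SE 3.35) did not pass the test (edgeR adjusted p 0.4).

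ENSCAFG00000013466 kept a ligament excess in adult controls in these values, at 5.27 to 15.2 CPM in ligament and 0.598 to 2.36 CPM in capsule, without overlap. Its log2 fold change there was -2.61 (SE 0.45, edgeR adjusted p 0.16). In affected dogs ligaments held 5.02 to 48 CPM and capsules 1.32 to 19.2 CPM, which overlap, since affected capsule 1 stood at 19.2 CPM. In embryonic hip it lay between 0 and 0.402 CPM. ENSCAFG00000003102 overlapped between the tissues in both: control ligaments held 924 to 1631 CPM and control capsules 470 to 1277 CPM, and affected ligaments 728 to 2709 CPM and affected capsules 754 to 2346 CPM. Its log2 fold change was -0.3 (SE 0.33, edgeR adjusted p 0.68) in adult controls. The test of the difference between ages (log2 -1.2, SE 0.37) gave an edgeR adjusted p of 0.21.

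As shares of whole libraries, the 173 genes took 6.75% to 7.38% of the fragments of embryonic hip and 2.06% to 5.69% of those of affected capsules. The 5 control capsules held 0.429%, 0.591%, 9.09%, 1.1% and 11.2%, so that capsules 3 and 5 stood apart from the other 3, as capsules 2 and 5 did among the neonates. ENSCAFG00000014025 alone made up a large part of the shares of capsules and embryonic hip, with 52407 and 77636 CPM in control capsules 3 and 5. Every ligament of affected dogs (0.0403% to 0.0656%) and of control dogs (0.0557% to 0.071%) was above the neonatal ligaments and below every capsule. The 288 ligament-higher genes took 2.17% to 2.37% of fragments in embryonic hip, 3.02% to 3.85% in neonatal capsule and 5.59% to 6.59% in neonatal ligament. They took 6.68% to 9.34% in control capsules and 8.12% to 9.69% in control ligaments, ranges that overlap. Affected capsules (5.48% to 10.3%) and affected ligaments (6.07% to 12%) overlapped too. Both classes were chosen in the neonatal libraries, so the separation of the neonatal tissues follows at least in part from that choice. Whether these shares changed with age was not tested.

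**Figure D5:**
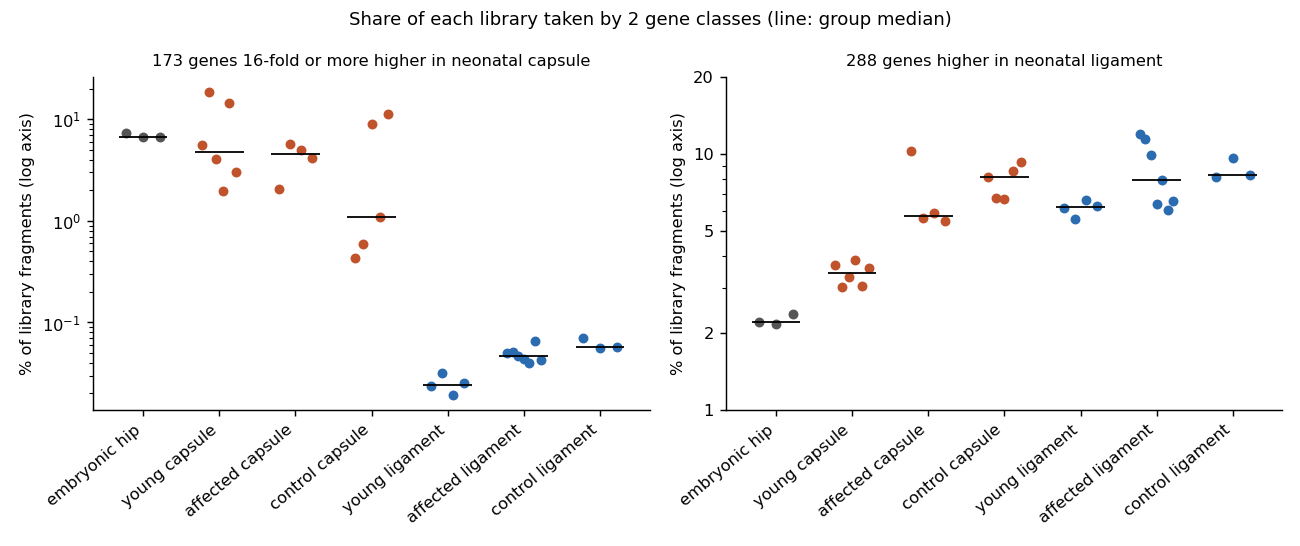
Percent of each library's fragments (log axes) in the 173 genes at 16-fold or more in neonatal capsule and in the 288 genes higher in neonatal ligament, with 1 point per library and a line at the group median. In the first class every capsule and embryonic hip library lies above every ligament, and in the second the tissues are apart in neonates (3.02% to 3.85% against 5.59% to 6.59%) and overlap in control and affected dogs. Both classes were chosen in the neonatal libraries, which favours separation there. ENSCAFG00000014025 alone makes up a large part of the first class in capsules and embryonic hip.

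Whether a tissue difference itself changed between neonates and adults was tested as an interaction over the 18 neonatal and control libraries. Of 13548 genes tested, 5 (0.0369%) were called, with 2058 at an unadjusted p under 0.05, and DESeq2 called 106. All 5 had the higher mean in ligament in neonates and in capsule in adult controls. Of the 5, 3 were also called ligament-higher in neonates. Of the 170 genes of the 16-fold class that could be tested, edgeR called none and DESeq2 called 11. Leaving out 1 library at a time changed the count to between 0 and 715. It was 715 without control ligament 3. It was 0 without any one of control capsules 1, 3 and 4, neonatal capsules 1, 5 and 6, control ligament 2, and neonatal ligaments 2, 3 and 4, and it was 2 without control capsule 5 or control ligament 1.

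The 2 interaction genes with the lowest p were ENSCAFG00000015412 and ENSCAFG00000013863, given here on the scale set over all 32 libraries. ENSCAFG00000015412 had 10.5 ± 5.45 CPM (n = 6) in neonatal capsule and 19.5 ± 2.48 CPM (n = 4) in neonatal ligament, but 24.1 ± 9.36 CPM (n = 5) in control capsule and 4.42 ± 1.82 CPM (n = 3) in control ligament (interaction log2 -3.34, SE 0.55, edgeR adjusted p 0.035). Neonatal capsules held 4.53 to 20.1 CPM and neonatal ligaments 17.2 to 21.8 CPM, which overlap, since capsule 2 stood at 20.1 CPM. The neonatal difference alone was not called (log2 -0.86, edgeR adjusted p 0.14), and it was -0.07 within the dog of capsule 2 and ligament 2. Control ligaments held 5.88, 2.39 and 5.0 CPM and control capsules 13 to 36.4 CPM, without overlap, and the adult difference alone was not called either (log2 2.47, edgeR adjusted p 0.16). ENSCAFG00000013863 had a neonatal log2 fold change of -1.39 (SE 0.19, edgeR adjusted p 0.0019), with 12.1 ± 2.19 CPM (n = 6) in capsule and 32.4 ± 6.98 CPM (n = 4) in ligament. In adult controls it stood at 20.1 ± 7.19 CPM (n = 5) in capsule and 10 ± 3.39 CPM (n = 3) in ligament (interaction log2 -2.42, SE 0.4, edgeR adjusted p 0.035), where capsule 2 at 10.3 CPM fell within the ligament range. The calls of these genes were lost in 11 and 10 of the 18 fits that leave out 1 library, with adjusted p up to 0.22 in both.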

How the data were processed

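The authors deposited, per the file headers, an estimated count of fragments per gene and library, a scaled fragment signal and FPKM. The submitters' processing notes name the canFam3 build and the tools TopHat2 2.0.13, Bowtie2 2.2, Cuffdiff 2.2.1 and cutadapt 1.8, with no roles. The strand setting of the counting is not given in the sources used here, so fragments of overlapping, antisense or near-identical genes may be shared. The deposited estimated counts (0.332% not whole within 1e-06) were rounded and tested with edgeR 4.0.16 in R 4.3.3: filterByExpr, TMM scaling, robust quasi-likelihood F test, Benjamini-Hochberg adjustment, called under 0.05. The SE given with an edgeR log2 value is approximate: it is the size of that value divided by the square root of its F statistic. FPKM was used for levels per length, and the ratio of the deposited signal to FPKM for relative gene length. Of all values, 9 carried the status FAIL, 1 of them in a neonatal library, and their counts were kept.

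CPM used TMM-scaled totals. Log2 CPM had a prior count of 2. The main design ignored the dog. Same-dog capsule and ligament deviations correlated at 0.492, 0.406 and 0.109 (different dogs: -0.336 to 0.196), and the pairing comes from the dog identifiers in the labels. Replicates of a group were different dogs, and the lowest chi-square per gene between 2 libraries of a tissue was 12.6, so none was a copy. Alternatives used DESeq2 1.42.0, limma 3.58.1, other scalings and filters, log2 FPKM and left-out libraries. The scripts were tested on simulated data. Members, classes and lists were chosen with earlier results of these data known. Gene lists and cell type markers named by symbol could not be tested, because 0 of 24580 IDs matched a symbol. The rule for named genes is given with them. The interaction fit took no account of dogs with both tissues.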

Additional observations from a re-analysis of the deposited data

Results flagged for a closer look

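Among the 28 groups of single values checked for a library far from the others, 3 had one, and chance flags about 1 in 20 groups. Neonatal ligament 2 had 9895143 fragments, where the other 3 neonatal ligaments had 6018741 to 6538359. Affected ligament 6 had the highest share of fragments in the 173 genes at 16-fold or more among affected ligaments, at 0.0656%. Affected capsule 1 had the highest share in the 288 ligament-higher genes among affected capsules, at 10.3%, where the other 3 had 5.48% to 5.9%.

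The difference between tissues changed between neonates and adult controls in 5 genes by edgeR's interaction test (adjusted p 0.035 to 0.048). The log2 interaction was -3.34 for ENSCAFG00000015412 and -2.42 for ENSCAFG00000013863, toward ligament in neonates and toward capsule in adults, and each call was lost when certain single libraries were left out.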

How the results depend on the processing

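Neonatal calls (778) became 1203 (724 capsule-higher, 479 ligament-higher) with DESeq2, 1463 (804 and 659) with limma voom and the dog as a random effect, and 364 (267 and 97) with no dog on both sides. They became 603 (486 and 117) with the dispersion from all libraries, where the ligament-higher calls at 2-fold or more went from 104 to 66. They became 488 (318 and 170) with the dog as replicate block in the paired dogs, and 387 to 875 with each library left out. DESeq2 called 774 of the 778 genes. Calls at 2-fold or more (502) became 326 with no dog on both sides and 305 (without ligament 3) to 610 with 1 library left out. The 173 genes at 16-fold or more became 78 with log2(FPKM + 1), which shrinks folds of low genes, and 145 to 188 with 1 library left out. Ligament-higher calls at that size (0) became 4 without the filter and 2 without ligament 4. They became 1 without capsule 4, with the dog as replicate block, or with no dog on both sides. Adult control calls (0) became 236 with DESeq2, 8 without the filter, and 0 to 33 with 1 library left out (33 without control ligament 3). Affected calls (151) became 242 with DESeq2, 120 to 186 with 1 library left out, and 159 with the dog as replicate block. Interaction calls (5) became 106 with DESeq2 and 0 to 715 with 1 library left out.

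With 1 library left out, the exact permutation p for totals ran from 0.0357 (without ligament 4) to 0.19, being 0.0476 without capsule 1. That for genes at 1 CPM ran from 0.0238 (without capsule 5 or ligament 2) to 0.179, and that for the top 10 share from 0.524 to 0.897. Among genes followed into adult controls, the capsule-higher share ran from 76.3% to 84.9% and the ligament-higher share from 49% (without control ligament 3, a reversal) to 69.8%, being 53.1% without control capsule 3. In affected dogs the ranges were 85.1% to 91.6% and 65.6% to 83%, and scaling by library totals gave 85.5% and 82.6%. The 4 named genes were called in all 23 alternatives run on them. The causes of these shifts were not tested. Depth limits genes near 0.105 CPM.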

Other observations

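One gene singled out after its values were seen, ENSCAFG00000009059, had a fitted neonatal log2 fold change of -3.86 (SE 1.44) without passing edgeR's test (adjusted p 0.17). Ligament 2 held 2260 CPM, the other ligaments held 10.2, 5.51 and 83.2 CPM, and the 6 capsules held 13.9 to 95.7 CPM. In adult controls its mean was 251 CPM in ligament and 1.04 CPM in capsule.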
